A study of Rattus norvegicus with 8 samples.

Results

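Inhba, Bdnf, Nptx2, Homer1, Dusp1, Crem, Sik1, Per1, Gadd45b and Klf4 are genes that neurons induce when they are active: secreted proteins, a synaptic scaffold, a phosphatase and genes of the feedback on CREB signalling, with a growth-arrest gene and a Krüppel-like factor. These 10 genes, of 22459 genes and unnamed accessions tested, were followed through cultured rat neurons exposed to ADDL, to CAT-SKL, or to both in turn. They were chosen by name after their ratios on these same arrays were known, so their values below are a description and no test of them supports a finding. All probes whose RefSeq accession maps to one of the 10 symbols were taken, which gave 14 probes. All 10 genes were tested, and each was above background in both channels on all 8 arrays.

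The cells were primary neurons of the cortex and hippocampus from E18 Sprague Dawley rat embryos, treated after 7 days in vitro. ADDL are soluble oligomers prepared from amyloid-beta, the peptide of the plaques in Alzheimer's disease. CAT-SKL is catalase, a peroxisomal enzyme that degrades hydrogen peroxide, with a modified targeting signal. There were 4 treatments with 2 arrays each: CAT-SKL alone at 1 µM for 24 h, ADDL alone at 1 µM for 24 h, CAT-SKL for 24 h and then ADDL for a further 24 h (CAT-SKL+ADDL), and ADDL for 24 h and then CAT-SKL for a further 24 h (ADDL+CAT-SKL). Every array set treated RNA in the red dye Cy5 against RNA of vehicle-treated neurons in the green dye Cy3, with no dye swap, so each value below is a log2 ratio of treated over vehicle and 0 means an equal level. The labels do not say whether the replicates came from separate cultures or litters or whether the vehicle RNA was 1 pool, so the spread between arrays may be technical. The sequential treatments lasted longer than the single ones and occupied the other row of the slide, so treatment, duration and slide position cannot be told apart here.

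The 8 arrays were of 1 slide, and 71.5% to 81.0% of probes were above background in a channel. The 2 CAT-SKL+ADDL arrays differed by no more than duplicate spots did: over 15840 probes with 2 spots, the differences between these arrays at the first and at the second spot had r = 0.00718, against 0.272 to 0.678 for the other 27 pairs of arrays. They were counted as 1 sample, and the fit across all genes used 7 samples. Standard errors and intervals for CAT-SKL+ADDL therefore hold no spread between its own arrays and rest on that of the other treatments. The CAT-SKL arrays stood apart from each other in the opposite way: the median ratio of the 10 genes was -0.31 on CAT-SKL 1 and 0.10 on CAT-SKL 2. Of 12 neuron markers 11 were tested, without Rbfox3, and all 11 were above background in the vehicle channel of all 8 arrays. So were all tested markers of astrocytes (9), microglia (7) and dividing cells (6), and 7 of 8 of the oligodendrocyte lineage. The counts were 2 of 4 for endothelial cells and 4 of 5 for fibroblasts and meninges. Being above background therefore does not identify the cells as neurons.

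Synaptic activity raises calcium and cAMP in a neuron, and kinases then phosphorylate the transcription factor CREB, which binds the cAMP response element (CRE, TGACGTCA, or its half-site TGACG) and switches on genes within minutes to hours. Some of these genes act at the synapse: activin A, the dimer that Inhba encodes, and BDNF are secreted, NPTX2 gathers AMPA-type glutamate receptors, and the short form of Homer1 loosens the scaffold beneath the synapse. Others end the response: DUSP1 removes phosphate from MAP kinases, an internal promoter of Crem makes the repressor ICER, SIK1 keeps the CREB coactivators of the CRTC family out of the nucleus, and PER1 represses its own promoter in the circadian clock. GADD45B takes part in stress signalling and DNA demethylation, and KLF4 is a zinc-finger factor that restrains neurite growth in several neuron types.

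Promoter windows that carry a CRE or its half-site are shown for Dusp1, Crem (the internal starts), Sik1 and Bdnf, since these are CREB targets whose values are described below. Each runs from 250 bases before to 50 bases after an annotated start in RefSeq (GRCr8), printed on the strand of the gene, with CRE and half-site matches in capitals. Both strands were searched, so a match also appears as CGTCA, and a full CRE holds a half-site on each strand.
Dusp1, chr10:17184603-17184902, plus strand: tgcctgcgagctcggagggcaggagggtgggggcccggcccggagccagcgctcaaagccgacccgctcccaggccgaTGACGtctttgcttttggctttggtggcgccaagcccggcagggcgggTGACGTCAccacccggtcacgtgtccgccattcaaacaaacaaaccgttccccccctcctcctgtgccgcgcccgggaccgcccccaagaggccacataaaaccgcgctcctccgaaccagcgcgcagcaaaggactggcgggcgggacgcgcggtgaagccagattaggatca
Crem, upstream internal start, chr17:58984547-58984846, plus strand: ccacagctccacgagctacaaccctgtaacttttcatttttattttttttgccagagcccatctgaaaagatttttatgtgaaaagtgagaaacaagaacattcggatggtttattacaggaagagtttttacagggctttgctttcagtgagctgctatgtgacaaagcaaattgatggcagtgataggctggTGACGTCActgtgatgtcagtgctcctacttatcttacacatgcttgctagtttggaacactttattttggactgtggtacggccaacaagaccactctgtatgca
Crem, downstream internal start, chr17:58985240-58985539, plus strand: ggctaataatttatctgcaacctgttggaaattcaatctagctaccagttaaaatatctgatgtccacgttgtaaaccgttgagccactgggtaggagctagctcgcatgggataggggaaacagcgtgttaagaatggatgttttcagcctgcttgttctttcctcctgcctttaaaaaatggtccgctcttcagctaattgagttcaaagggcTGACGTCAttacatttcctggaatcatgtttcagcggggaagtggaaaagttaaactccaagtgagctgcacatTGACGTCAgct
Sik1, chr20:9958597-9958896, minus strand: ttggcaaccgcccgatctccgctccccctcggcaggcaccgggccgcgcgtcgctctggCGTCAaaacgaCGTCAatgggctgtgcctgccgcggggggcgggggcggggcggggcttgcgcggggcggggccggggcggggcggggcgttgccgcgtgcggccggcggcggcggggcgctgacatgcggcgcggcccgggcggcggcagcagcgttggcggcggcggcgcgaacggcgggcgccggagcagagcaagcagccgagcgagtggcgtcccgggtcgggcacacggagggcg
Bdnf, one of 6 windows, chr3:116637608-116637907, plus strand: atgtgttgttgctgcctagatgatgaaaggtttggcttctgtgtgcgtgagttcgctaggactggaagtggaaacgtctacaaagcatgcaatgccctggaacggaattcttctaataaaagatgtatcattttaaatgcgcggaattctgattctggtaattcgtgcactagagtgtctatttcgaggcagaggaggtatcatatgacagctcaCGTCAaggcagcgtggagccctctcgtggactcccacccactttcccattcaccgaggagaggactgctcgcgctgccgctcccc
The Dusp1 window held a full CRE that begins 124 bases before the start and a half-site 172 bases before it. Of the Crem windows, the first held a full CRE 56 bases before the start and the second held one 35 bases before and one 40 bases after the start. Another Crem window, not printed here, held half-sites 241 and 6 bases before its start. Sik1 held half-sites at 191 and 180 bases before the start and Bdnf one at 35. All 10 genes had at least 1 window in this table, 17 windows in all. A full CRE was found for 2 of the 10 genes (Dusp1 and Crem), against 2% of 27457 genes with a window, and in 3 of the 17 windows, against 1.83% of 33469 windows. A half-site was found for 6 of the 10 (Bdnf, Nptx2, Dusp1, Crem, Sik1 and Gadd45b), against 23% of genes, and in 8 of 17 windows, against 21.2%. The E-box CACGTG lay in windows of 3 genes (Bdnf, Dusp1 and Gadd45b; 7.08% of all genes), and the CArG box, the motif of SRF, in none (1.77% of all genes). A match describes these letters only and was not tested as a binding site.

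Inhba, which encodes the subunit of activin A, had the widest range of the 10 genes. Its ratio was -0.87 and -0.95 on the ADDL arrays, -0.61 and -0.58 on the CAT-SKL+ADDL arrays, -0.05 and -0.17 on the ADDL+CAT-SKL arrays, and -1.05 and 0.10 on the CAT-SKL arrays. Both ADDL arrays and CAT-SKL 1 were thus far below vehicle, while CAT-SKL 2 was near the vehicle level. The mean after ADDL was -0.91 ± 0.21 (standard error of the fit, n = 2 arrays), 53.3% of vehicle, the lowest value of all 22459 genes in that comparison. It did not pass the test (limma, adjusted p = 0.0892). Before normalisation the Cy5 intensity was 864.25 and 805.5 on the ADDL arrays and 923 on CAT-SKL 1, but 1949.75 on CAT-SKL 2. The vehicle intensity in Cy3 lay between 1649.5 and 1787 on all 8 arrays. Raw Cy5 did not keep the order of the ratios on every array, with 1351.5 on ADDL+CAT-SKL 2 and 1430.5 on CAT-SKL+ADDL 2. In bulk RNA of this kind, fewer cells of a type and less RNA per cell cannot be told apart.

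**Figure D1:**
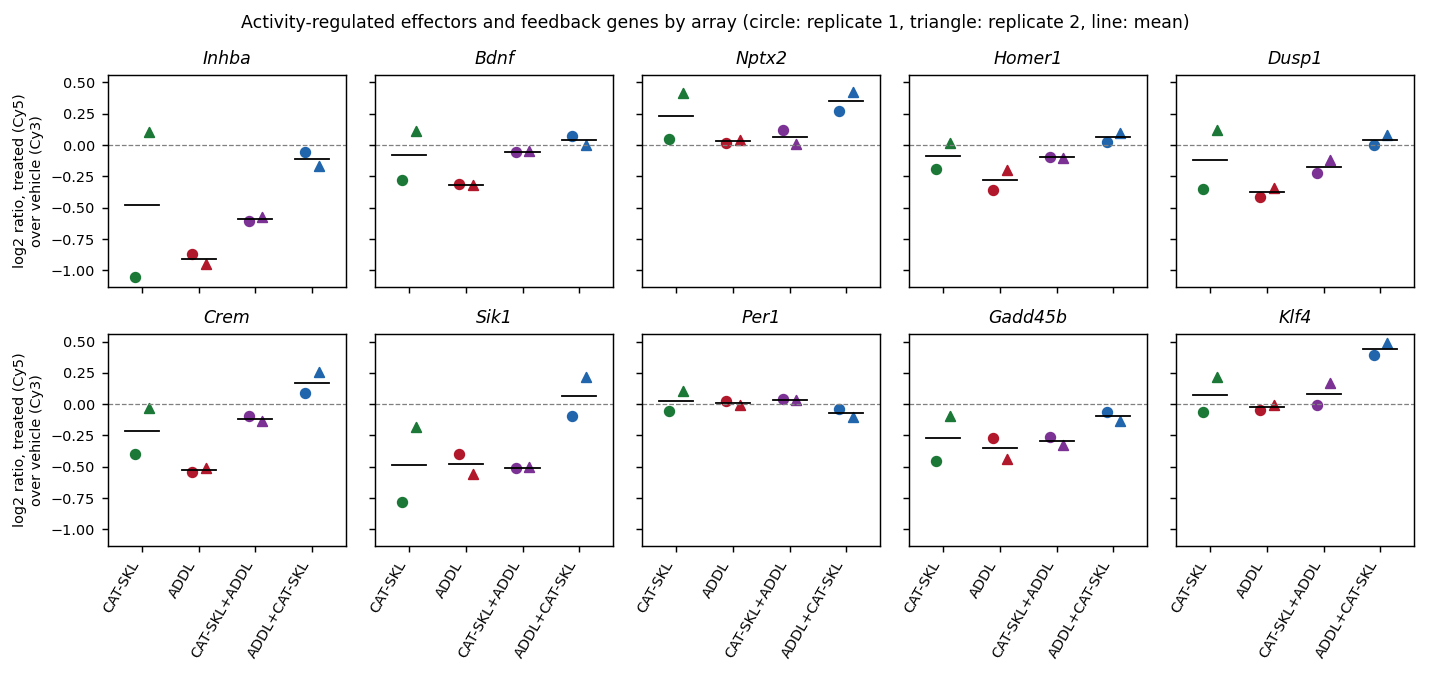
Log2 ratio of treated (Cy5) over vehicle (Cy3) for each of the 10 genes, with a circle for replicate 1, a triangle for replicate 2 and a line at the mean of the 2 arrays of each treatment; the dashed line marks 0. For Inhba the ADDL arrays lie at -0.87 and -0.95, the CAT-SKL arrays lie far apart at -1.05 and 0.10, and Per1 stays between -0.10 and 0.11 on all 8 arrays.

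Bdnf, the neurotrophin that signals through TrkB, was measured by 10 spots per array. Its ratio was -0.31 and -0.32 on the ADDL arrays, -0.06 and -0.05 on the CAT-SKL+ADDL arrays, 0.07 and 0.00039 on the ADDL+CAT-SKL arrays, and -0.28 and 0.11 on the CAT-SKL arrays. The ADDL arrays were the lowest of the 8 and differed from each other by less than the spots of a single array, whose median SD was 0.0802. The mean after ADDL was -0.32 ± 0.09, 80.3% of vehicle. The Bdnf gene has many promoters whose transcripts share 1 coding exon, and which of them the probe detects is not given here.

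Homer1, the synaptic scaffold, was also measured by 10 spots per array, with a median spot SD of 0.0689. The ratio was -0.36 and -0.20 on the ADDL arrays, -0.19 and 0.02 on the CAT-SKL arrays, -0.09 and -0.10 on the CAT-SKL+ADDL arrays, and 0.03 and 0.10 on the ADDL+CAT-SKL arrays. The mean after ADDL was -0.28 ± 0.07, 82.6% of vehicle. The short activity-induced Homer1a and the long constitutive forms come from the same gene, and the sources used here do not say which of them the probe detects.

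Nptx2, the neuronal pentraxin that clusters AMPA receptors, lay above 0 on all 8 arrays, as did 7.47% of all genes. Klf4 and Per1 were not mostly below vehicle either, with 4 of the 8 arrays below 0 for each. The ratio was 0.02 and 0.04 on the ADDL arrays and 0.12 and 0.01 on the CAT-SKL+ADDL arrays, against 0.27 and 0.43 on the ADDL+CAT-SKL arrays and 0.05 and 0.42 on the CAT-SKL arrays. The ADDL+CAT-SKL arrays and CAT-SKL 2 were the high ones. The mean after ADDL+CAT-SKL was 0.35 ± 0.09, 127% of vehicle, with an adjusted p of 0.103 in limma.

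Crem had the lowest mean of the feedback genes after ADDL when read from its brightest probe. With the mean of its 5 probes it was -0.37, above the -0.48 of Sik1, and with the deposited ratios it was -0.61, beside -0.69 for Sik1. The brightest of its 5 probes gave ratios of -0.54 and -0.51 on the ADDL arrays, -0.40 and -0.03 on the CAT-SKL arrays, -0.10 and -0.14 on the CAT-SKL+ADDL arrays, and 0.09 and 0.26 on the ADDL+CAT-SKL arrays. The ADDL and ADDL+CAT-SKL arrays thus lay on opposite sides of vehicle. The mean after ADDL was -0.53 ± 0.09, 69.4% of vehicle, which ranked 28th from the lowest of all genes, and after ADDL+CAT-SKL it was 0.17 ± 0.09, 113% of vehicle. The adjusted p after ADDL was 0.0714 (limma), the smallest of the 10 genes in that comparison. It equals the smallest of all genes, a value that other genes share after ADDL, among them Gria3, Olig2 and Rrm2.

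The other Crem probes can be set beside it array by array. All 5 lay below 0 on both ADDL arrays, between -0.60 and -0.16, and all 5 lay above 0 on both ADDL+CAT-SKL arrays, between 0.03 and 0.26. On CAT-SKL 1 all 5 were below 0, and on CAT-SKL 2 they ranged from -0.03 to 0.13. The 3 brighter probes were lower on ADDL 1, at -0.52 to -0.60, than the 2 dimmer ones, at -0.19 and -0.25. On ADDL 2 the third of the brighter probes was at -0.22, above the -0.29 of a dimmer one, so the brightness did not separate them there. On the CAT-SKL+ADDL arrays the probes did not share a sign, with values from -0.16 to 0.12. Which of the probes detect the ICER transcripts is not given in the sources used here.

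**Figure D2:**
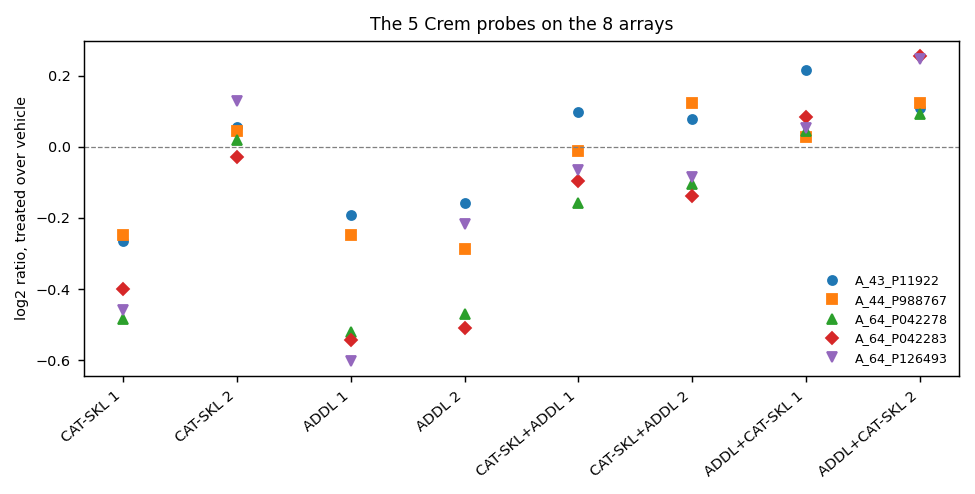
Log2 ratio of treated over vehicle on each of the 8 arrays for the 5 Crem probes, 1 symbol per probe; the dashed line marks 0. All 5 probes lie below 0 on the ADDL arrays and on CAT-SKL 1 and above 0 on the ADDL+CAT-SKL arrays.

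Dusp1, the phosphatase that switches off MAP kinases, gave -0.42 and -0.34 on the ADDL arrays, -0.23 and -0.12 on the CAT-SKL+ADDL arrays, 0.0035 and 0.08 on the ADDL+CAT-SKL arrays, and -0.35 and 0.12 on the CAT-SKL arrays. Its mean after ADDL was -0.38 ± 0.10, 76.9% of vehicle, and -0.59 with the deposited ratios. The ADDL arrays and CAT-SKL 1 were the low ones, as for Inhba, Bdnf and Crem.

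Sik1, the kinase that restrains CRTC coactivators, was 1 of 4 genes whose CAT-SKL+ADDL and ADDL arrays overlapped, with Nptx2, Gadd45b and Klf4. Its ratio was -0.51 and -0.50 after CAT-SKL+ADDL, between the -0.40 and -0.56 of the ADDL arrays, and it was -0.78 and -0.18 on the CAT-SKL arrays. The ADDL+CAT-SKL arrays were the highest, at -0.09 and 0.22, and CAT-SKL 2 at -0.18 was about as near to the vehicle level. The means were -0.48 ± 0.13 after CAT-SKL, -0.48 ± 0.13 after ADDL and -0.51 ± 0.19 after CAT-SKL+ADDL, which are 71.5%, 71.8% and 70.4% of vehicle. The 2 ADDL+CAT-SKL arrays had opposite signs, and the mean was 0.06 ± 0.13.

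Per1, the clock repressor, was the dimmest of the 10 genes, with a vehicle intensity of 50.5 to 62.5 over a local background of 25.5 to 29, and its values have little room above it. Its ratio was 0.03 and -0.0038 on the ADDL arrays, -0.05 and 0.11 on the CAT-SKL arrays, 0.04 and 0.03 on the CAT-SKL+ADDL arrays, and -0.04 and -0.10 on the ADDL+CAT-SKL arrays. No treatment mean was farther from 0 than -0.07 ± 0.06. The 95% confidence interval after ADDL was -0.12 to 0.15, for a probe this close to background.

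Gadd45b, which acts in stress signalling and DNA demethylation, lay below 0 on all 8 arrays, as did 7.99% of all genes. The ratio was -0.27 and -0.43 on the ADDL arrays, -0.45 and -0.10 on the CAT-SKL arrays, -0.26 and -0.33 on the CAT-SKL+ADDL arrays, and -0.06 and -0.13 on the ADDL+CAT-SKL arrays. The means were -0.35 ± 0.09 after ADDL, -0.27 ± 0.09 after CAT-SKL, -0.29 ± 0.12 after CAT-SKL+ADDL and -0.10 ± 0.09 after ADDL+CAT-SKL. The first 3 overlapped in their arrays, and the ADDL+CAT-SKL arrays reached higher than the ADDL ones.

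Klf4, a zinc-finger factor of the Krüppel-like family, was at the vehicle level after ADDL, with -0.04 and -0.0041. The ratio was -0.06 and 0.21 on the CAT-SKL arrays, -0.0080 and 0.17 on the CAT-SKL+ADDL arrays, and 0.39 and 0.49 on the ADDL+CAT-SKL arrays. Both ADDL+CAT-SKL arrays lay above the other 6. The mean there was 0.44 ± 0.07, 135% of vehicle, with an adjusted p of 0.0532 (limma), just short of the threshold of 0.05.

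By the median of the 10 treatment means, ADDL alone was lowest and ADDL+CAT-SKL highest. By single array the highest median was 0.10 on CAT-SKL 2, above 0.01 and 0.09 on the ADDL+CAT-SKL arrays. Not every gene followed this order: the mean of Sik1 was lowest after CAT-SKL+ADDL and that of Per1 after ADDL+CAT-SKL. After ADDL the median of the 10 was -0.33 and the same on both arrays, beside -0.00016 over all genes. Both arrays were below 0 for 8 of the 10, as for 31.6% of all genes, with Nptx2 above 0 on both and Per1 mixed. None of the 10 passed the test across all genes (limma, Benjamini-Hochberg adjusted p below 0.05), and neither did any gene (0%). At an unadjusted p below 0.05 the counts were 7 of 10 and 19% of all genes. Without CAT-SKL 1, and likewise without CAT-SKL 2, the spread was estimated from the ADDL and ADDL+CAT-SKL arrays alone, and Inhba, Bdnf, Dusp1, Crem and Sik1 passed for ADDL, with 1.46% of all genes (329). Their ADDL ratios are the same in that fit, which left out no ADDL array.

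After CAT-SKL alone the median of the 10 was -0.10 and rested on 1 array, with -0.31 on CAT-SKL 1 and 0.10 on CAT-SKL 2. It was -0.04 with median centring in place of loess. On CAT-SKL 1 there were 9 of the 10 below 0, beside 51% of all genes, and on CAT-SKL 2 there were 3, beside 50.6%. Both arrays were below 0 for Crem, Sik1 and Gadd45b, as for 34.0% of all genes, and above 0 for Nptx2, as for 32.4%. No member of the set passed the test, beside 2.62% of all genes (588; 0.837% higher and 1.78% lower), and the smallest adjusted p was 0.0881 for Sik1. At an unadjusted p below 0.05 the counts were 4 of 10 and 21.2%. Without CAT-SKL 2, Inhba and Sik1 passed, with 1.72% of all genes (387), and without CAT-SKL 1 none of the 10 did, with 0.00891% (2 genes). Without either ADDL array 53 genes passed and without either ADDL+CAT-SKL array 226, none of them among the 10.

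After CAT-SKL+ADDL the median of the 10 was -0.11, and both arrays were below 0 for 7, as for 38.8% of all genes. With median centring in place of loess this median was 0.01, and 5 of the 10 means were below 0. Nptx2 and Per1 lay above 0 on both arrays (36.2% of all genes) and Klf4 was mixed. Neither a member nor any other gene passed the test (0%). At an unadjusted p below 0.05 the counts were 2 of 10 (Sik1 and Gadd45b) and 11.3%. After ADDL+CAT-SKL the median of the 10 was 0.05. Both arrays were above 0 for Bdnf, Nptx2, Homer1, Dusp1, Crem and Klf4, as for 30.1% of all genes, and below 0 for Inhba, Per1 and Gadd45b, as for 31.6%. Again none passed the test, beside 0.454% of all genes (102; 0.240% higher and 0.214% lower), and at an unadjusted p below 0.05 the counts were 2 of 10 (Nptx2 and Klf4) and 17.6%. With any 1 of the CAT-SKL, ADDL or ADDL+CAT-SKL arrays left out, 0 or 1 of all genes and none of the 10 passed there.

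ADDL+CAT-SKL against ADDL asks how the genes stood when CAT-SKL followed ADDL. Both ADDL+CAT-SKL arrays lay above both ADDL arrays for 9 of the 10 genes, as for 19.1% of all genes, and below them for Per1, as for 20.6%. The difference was 0.80 ± 0.30 for Inhba (95% confidence interval 0.11 to 1.48), 0.70 ± 0.12 for Crem (0.41 to 0.98) and 0.54 ± 0.19 for Sik1 (0.11 to 0.97). For Klf4 it was 0.46 ± 0.10, for Dusp1 0.42 ± 0.14, for Bdnf 0.35 ± 0.12, for Homer1 0.34 ± 0.10, for Nptx2 0.32 ± 0.12, for Gadd45b 0.26 ± 0.12 and for Per1 -0.08 ± 0.08. The median of the 10 was 0.39, beside -0.0073 over all genes. None of the 10 passed the test and no gene did (0%, smallest adjusted p = 0.573 in limma), while 8 of 10 and 8.39% of all genes had an unadjusted p below 0.05. Without CAT-SKL 1 or without CAT-SKL 2 Inhba passed, with 0.0579% of all genes (13).

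CAT-SKL+ADDL against ADDL asks the same for CAT-SKL given first. Both CAT-SKL+ADDL arrays lay above both ADDL arrays for Inhba, Bdnf, Homer1, Dusp1, Crem and Per1, as for 22.4% of all genes, below them for none (24.9% of all genes), and the arrays overlapped for the other 4. The difference was 0.41 ± 0.15 for Crem (95% confidence interval 0.06 to 0.76), 0.32 ± 0.37 for Inhba (-0.53 to 1.16), 0.26 ± 0.15 for Bdnf (-0.08 to 0.60) and -0.03 ± 0.23 for Sik1 (-0.56 to 0.50). The median of the 10 was 0.14. None of the 10 passed the test and no gene did (0%), while Crem alone and 3.9% of all genes had an unadjusted p below 0.05. These comparisons share the ADDL arrays, so their values are not independent of each other. CAT-SKL+ADDL was 1 sample in the fit, so the errors and intervals here rest on the spread of the other treatments.

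ADDL against CAT-SKL, the comparison of the single agents, gave a median of -0.20 for the 10. Both ADDL arrays lay below both CAT-SKL arrays for Bdnf, Nptx2, Homer1 and Crem, as for 18.3% of all genes, above them for none (22.0% of all genes), and the arrays overlapped for the other 6. The difference was -0.43 ± 0.30 for Inhba, -0.31 ± 0.12 for Crem, -0.23 ± 0.12 for Bdnf and 0.0062 ± 0.19 for Sik1. None of the 10 passed the test and no gene did (0%), while Crem alone and 8.7% of all genes had an unadjusted p below 0.05. The median was -0.34 without CAT-SKL 1 and 0.01 without CAT-SKL 2.

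The 2 channels were also followed apart, as log2 levels made comparable between arrays by quantile normalisation of the mean brightness. For Inhba the SD over the 8 arrays was 0.0522 in the vehicle channel and 0.423 in the treated channel, 8.11 times as large. For Crem it was 0.0326 and 0.295, 9.05 times. The ratio of the treated SD to the vehicle SD lay between 2.24 (Gadd45b) and 4.60 (Klf4) for Bdnf, Nptx2, Homer1, Dusp1, Sik1, Gadd45b and Klf4, and was 0.553 for Per1, beside a median of 1.49 for this ratio over all genes. The vehicle levels of 9 of the 10 genes thus varied less over the arrays than the treated levels did. By the median of 1.49, so did those of most genes on the arrays. The share of all genes was not counted, and the 10 were chosen with their ratios known. The dyes also differ between the channels, and the part of the dye was not tested.

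**Figure D3:**
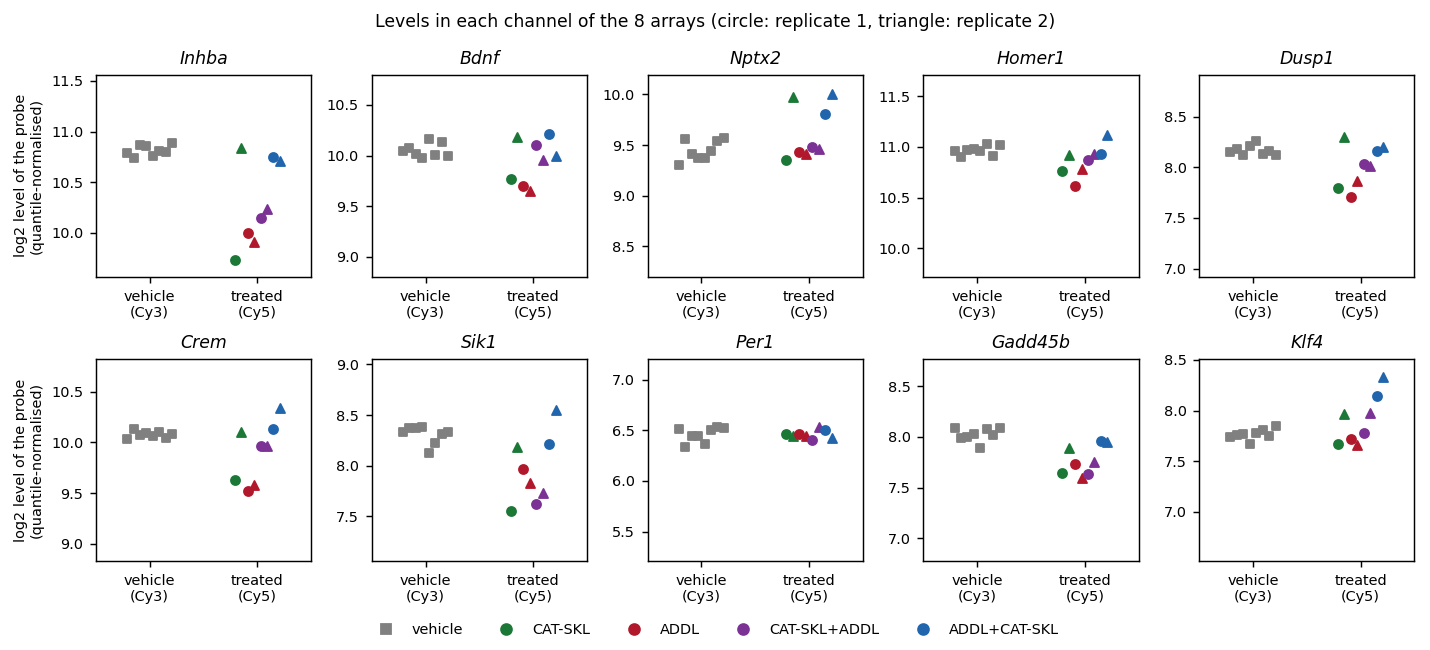
Log2 level of each gene's probe in the vehicle channel (Cy3, squares) and the treated channel (Cy5, circles for replicate 1 and triangles for replicate 2, coloured by treatment) on the 8 arrays; each panel spans 2 log2 units. The vehicle squares of Inhba lie between 10.74 and 10.88, while the treated symbols run from 9.73 to 10.84.

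Over the 7 samples the 10 genes varied together, apart from Per1. The r of a gene with the mean of the other 9 was between 0.85 and 0.97 for 9 genes and was -0.06 for Per1 (n = 7). Of the 45 pairs, 40 had r above 0, with a median of 0.85. The r over pairs of all genes was not computed, and the 10 were chosen with their ratios known, so these values only describe them. The points share the vehicle design, the slide and the low CAT-SKL 1 and ADDL arrays, and no test was made. Of 9255 other genes that varied at least as much, the 5 most like the mean of the 10 were Nptx1 and Gprc5a (both r = 0.996), Alkal2 and Ch25h (both r = 0.995) and Egr2 (r = 0.992). These 5 were picked by this r, so the likeness of their values below follows from the choice. Nptx1, the other secreted neuronal pentraxin, gave -0.48 and 0.11 after CAT-SKL, -0.44 and -0.46 after ADDL, -0.20 and -0.26 after CAT-SKL+ADDL, and 0.13 and 0.25 after ADDL+CAT-SKL. Gprc5a, an orphan receptor of the G protein-coupled family, gave -0.85 and 0.36 after CAT-SKL and -0.81 and -0.76 after ADDL. Egr2, an activity-induced zinc-finger factor, gave -0.37 and -0.36 after ADDL and 0.27 and 0.41 after ADDL+CAT-SKL.

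The partners of the 10 genes were read from lists chosen with earlier results of these data known. In the activin pathway 9 of 10 genes were tested and none passed in any comparison, with medians between -0.0041 and 0.04 against vehicle. Fst, which binds and blocks activin, had means of 0.12 ± 0.07 after CAT-SKL, 0.16 ± 0.07 after ADDL and 0.24 ± 0.07 after ADDL+CAT-SKL. The receptor gene Acvr2a lay between -0.0033 and 0.10 in the 4 treatment means. Inhbb, the other activin subunit, had means of -0.10 ± 0.05 after ADDL and -0.19 ± 0.05 after ADDL+CAT-SKL. Its CAT-SKL+ADDL arrays were at -0.05 and -0.95, apart by far more than those of Inhba, at -0.61 and -0.58.

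In the neurotrophin list 7 of 8 genes were tested and none passed. Ntrk2, which encodes the BDNF receptor TrkB, had means of -0.15 ± 0.06 after CAT-SKL, -0.13 ± 0.06 after ADDL, -0.14 ± 0.09 after CAT-SKL+ADDL and -0.27 ± 0.06 after ADDL+CAT-SKL. Bdnf was lowest after ADDL, whereas Ntrk2 was lowest after ADDL+CAT-SKL. Among pentraxins and AMPA receptors all 6 were tested, and Gria3, an AMPA receptor subunit, rose after CAT-SKL by 0.37 ± 0.06 (limma, adjusted p = 0.0346), higher on both arrays. The call was lost with any 1 of the CAT-SKL, ADDL or ADDL+CAT-SKL arrays left out. Gria3 was 0.36 ± 0.06 after ADDL and did not pass there (limma, adjusted p = 0.0714). Nptxr, the membrane-bound pentraxin, had a mean of -0.29 ± 0.06 after ADDL, where Nptx2 was at 0.03 ± 0.09.

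All 8 Homer partners were tested and none passed. Homer2 and Homer3, the other scaffolds of the family, had means after ADDL of 0.08 ± 0.06 and -0.12 ± 0.06, beside -0.28 ± 0.07 for Homer1. In the CREB list 11 of 15 genes were tested, without Sik2, and none passed. Creb1 itself, the gene of the transcription factor, had means of -0.26 ± 0.06 after CAT-SKL and -0.11 ± 0.06 after ADDL, and neither passed. Prkacb, a catalytic subunit of protein kinase A, was -0.72 ± 0.16 after CAT-SKL and -0.12 ± 0.16 after ADDL.

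Of the MAP kinase phosphatases besides Dusp1, 9 of 10 were tested. Dusp8 fell by 0.58 on the log2 scale after CAT-SKL (-0.58 ± 0.10, limma, adjusted p = 0.0381), with -0.75 and -0.40 on the arrays, and no other passed. That call was lost without CAT-SKL 1 and without any 1 of the ADDL or ADDL+CAT-SKL arrays. Dusp6, the phosphatase of ERK, was -0.19 ± 0.11 after ADDL and 0.21 ± 0.11 after ADDL+CAT-SKL. Of 9 relatives of Gadd45b and Klf4, 8 were tested. Klf2, a Krüppel-like factor close to Klf4, rose after ADDL+CAT-SKL by 0.44 ± 0.06 (limma, adjusted p = 0.0446), with 0.48 and 0.40 on the arrays, and it was the only one of these relatives that passed. That call was lost with any 1 of the CAT-SKL, ADDL or ADDL+CAT-SKL arrays left out. Klf4 had nearly the same mean there, also with both arrays above 0. Gadd45g had means of -0.61 ± 0.17, -0.91 ± 0.17, -0.74 ± 0.23 and -0.32 ± 0.17 after CAT-SKL, ADDL, CAT-SKL+ADDL and ADDL+CAT-SKL, all farther below vehicle than those of Gadd45b. Gadd45a was -0.32 ± 0.07 after ADDL and 0.19 ± 0.07 after ADDL+CAT-SKL. All 9 clock genes besides Per1 were tested, none passed, and Per2 lay between -0.03 and 0.06 in the 4 treatment means.

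The wider set of activity-regulated genes, transcription factors and others outside these 10, had 32 of 37 members tested and none passed in any comparison. After CAT-SKL, ADDL and CAT-SKL+ADDL there were 27 of 32 below 0 each time, with medians of -0.10, -0.18 and -0.15, and after ADDL+CAT-SKL there were 15 of 32 below 0, with a median of 0.05. The CAT-SKL count rested on 1 array, with 29 of 32 below 0 on CAT-SKL 1 and 14 on CAT-SKL 2, while the ADDL arrays had 26 and 29. Of all genes, 49.3% to 51.6% lay below 0 on an array. Arc, which regulates AMPA receptor uptake, was -0.44 ± 0.12 after ADDL and 0.24 ± 0.12 after ADDL+CAT-SKL. Egr4 was -0.58 ± 0.20 after ADDL and 0.18 ± 0.20 after ADDL+CAT-SKL. Fos, the classical immediate early gene, was above vehicle in all 4 treatment means, from 0.13 ± 0.06 to 0.28 ± 0.09. Npas4, a factor specific to neurons, was below vehicle in all 4, from -0.25 ± 0.17 to -0.41 ± 0.12.

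Markers of other cell types were also read on each array. The median of 9 tested astrocyte markers of 10 was 0.82 on CAT-SKL 1 and 0.20 on CAT-SKL 2, 0.46 and 0.81 on the ADDL arrays, 0.58 and 0.52 on the CAT-SKL+ADDL arrays, and 0.29 and -0.02 on the ADDL+CAT-SKL arrays. The summed level of these 9 markers was 10944 to 11858 in the vehicle channels and 11001 to 22711 in the treated channels, and none passed the test. The median of 6 tested markers of dividing cells of 8 ran from 0.11 on ADDL+CAT-SKL 2 to 0.62 on CAT-SKL+ADDL 2, and Birc5 rose after CAT-SKL by 0.37 ± 0.07 (limma, adjusted p = 0.0420). The Birc5 call was lost with any 1 of the CAT-SKL, ADDL or ADDL+CAT-SKL arrays left out. Of 8 markers of the oligodendrocyte lineage, Pdgfra (1.19 ± 0.21), Olig2 (0.50 ± 0.09) and Sox10 (0.57 ± 0.11) rose after CAT-SKL (limma, adjusted p = 0.0393 to 0.0422), calls that were lost without CAT-SKL 1 and without any 1 of the ADDL or ADDL+CAT-SKL arrays. Their list had medians of 0.76 and 0.33 on the CAT-SKL arrays, 0.36 and 0.58 on the ADDL arrays, 0.72 and 0.75 on the CAT-SKL+ADDL arrays, and 0.12 and -0.0049 on the ADDL+CAT-SKL arrays. The summed level of those 8 was 3147 to 3562 in the vehicle channels and 2516 to 6665 in the treated channels. The lists for microglia (7 tested), endothelial cells (4) and fibroblasts and meninges (5) had medians of -0.13 to 0.16, -0.03 to 0.06 and -0.08 to 0.02 on the 8 arrays, and none of their genes passed. The 11 neuron markers had medians between -0.06 and 0.09 on the 8 arrays and summed levels of 65595 to 69803 and of 64425 to 72359. Of these, Gad1 rose after CAT-SKL by 0.56 ± 0.11 (limma, adjusted p = 0.0430), a call lost without CAT-SKL 1 and without any 1 of the ADDL or ADDL+CAT-SKL arrays. Slc17a6 rose after ADDL+CAT-SKL by 0.41 ± 0.06 (limma, adjusted p = 0.0446), a call lost with any 1 of the CAT-SKL, ADDL or ADDL+CAT-SKL arrays left out. None of the 9 partner and marker calls given here passed with the deposited ratios. The part of these markers in the values of the 10 genes was not tested.

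**Figure D4:**
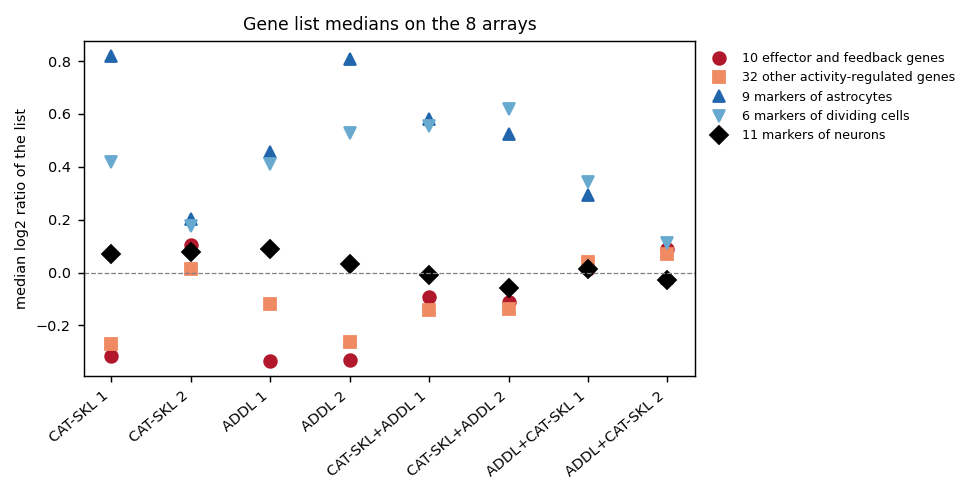
Median log2 ratio of 5 gene lists on each of the 8 arrays: the 10 effector and feedback genes (circles), 32 other activity-regulated genes (squares), and markers of astrocytes (upward triangles), dividing cells (downward triangles) and neurons (diamonds); the dashed line marks 0. The 10 genes are lowest on CAT-SKL 1 and on the ADDL arrays, at -0.31 and -0.33, and the neuron markers stay between -0.06 and 0.09.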

How the data were processed

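RNA from treated (Cy5) and vehicle-treated (Cy3) neurons was measured on 8 two-colour Agilent arrays. Per the file headers, the deposited scanner files hold median spot intensity and local background intensity for each channel, with flags of 0 or 1 for background, outliers and saturation. Per the submitters' processing notes, they come from Agilent Feature Extraction 11.5. A deposited table of the series gives log10 ratios of Cy5 over Cy3 that were background-subtracted and dye-normalised, per the file headers, with a median of 0 on each array. It served as an alternative.

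Background was corrected with normexp (offset 50) and each array normalised by loess in limma 3.58.1 under R 4.3.3, with control spots at weight 0. Outlier-flagged spots, 902 to 1262 on an array, were dropped, and the remaining spots of each probe averaged. A probe was kept if 2 or more of the 8 arrays showed it above background in Cy5 or Cy3 (25363 of 30367, 67 of them without a value on some array and left out), and the brightest probe stood for a gene. Probes were named through unversioned RefSeq accessions of the GRCr8 table (17998 had a symbol, and 12944 of the 22459 genes tested). Probe positions are not given, since no genome of the array's build was used here.

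Changes were fitted with lmFit and eBayes over 7 samples (3 residual degrees of freedom, 5.05 from the prior), with Benjamini-Hochberg adjustment within each comparison at 0.05. The ratio against 0 leaves out the spread of the vehicle samples and cannot separate a dye effect from the treatment. The members and the lists of partners and markers were chosen with earlier results of these data known. All 10 members are given, with the partner genes of a preset list, those that passed, up to 3 more per list of the largest mean ratio, and the 5 genes most like the members' mean. Alternatives covered the normalisation, starting values, filters, probe choice, sample counting, the replicate block and each array left out. The fit was tested on simulated data. Precision is limited by how few arrays there are, and 0 spots were saturated.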

Additional observations from a re-analysis of the deposited data

Results flagged for a closer look

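In 11 comparisons between treatments, both arrays of one treatment lay on one side of vehicle and both arrays of the other on the opposite side, for a member of the set. That is 18.3% of the 60 pairs of a member and a comparison, beside 10.6% over all genes. The members were chosen from these ratios. For ADDL against ADDL+CAT-SKL the fit across all genes was run and none of these members passed (smallest adjusted p = 0.573 in limma), and the other 6 differences were not tested. After ADDL against ADDL+CAT-SKL, the difference of the mean log2 ratios was -0.35 for Bdnf, -0.34 for Homer1, -0.42 for Dusp1, -0.70 for Crem and -0.46 for Klf4, with ADDL the lower each time, a pattern of 5.73% of all genes. After CAT-SKL+ADDL against ADDL+CAT-SKL it was -0.091 for Bdnf, -0.16 for Homer1, -0.21 for Dusp1 and -0.29 for Crem, and Per1 had the opposite sign at 0.10, patterns of 7.05% and 6.91% of all genes. After CAT-SKL against ADDL+CAT-SKL it was -0.38 for Crem, as for 5.23% of all genes. For Bdnf, Dusp1 and Klf4 1 array of a pair lay within 0.01 of vehicle, so that the side it fell on carries little weight. In the vehicle channel no array lay far from the other 7 for any of the 10 genes.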

How the results depend on the processing

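The medians of the 10 genes against vehicle moved by less than the pooled SD between replicates (0.173, to which the CAT-SKL arrays at -0.31 and 0.10 add most) under each of the 8 alternatives that kept all arrays. Median centring still moved them from -0.10 to -0.04 after CAT-SKL and from -0.11 to 0.01 after CAT-SKL+ADDL. With arrays left out in turn they ranged from -0.31 to 0.10 after CAT-SKL, from -0.33 to -0.33 after ADDL, from -0.11 to -0.09 after CAT-SKL+ADDL and from 0.01 to 0.09 after ADDL+CAT-SKL. They ranged from -0.34 to 0.01 for ADDL minus CAT-SKL, from 0.12 to 0.18 for CAT-SKL+ADDL minus ADDL and from 0.37 to 0.44 for ADDL+CAT-SKL minus ADDL. The alternatives for these differences, and for the partner and marker genes that passed, were chosen after seeing the data. Of 320 values of single members with all arrays, 315 stayed within the spread, and of 320 with 1 array left out 302 did, the other 18 being values after CAT-SKL without 1 of its arrays. Median centring turned the sign of Bdnf, Homer1 and Per1 after CAT-SKL and of Bdnf, Homer1, Crem and Per1 after CAT-SKL+ADDL (to 0.11 for Bdnf, 0.09 for Homer1 and 0.05 for Crem), and the deposited ratios that of Per1 after ADDL and Inhba after ADDL+CAT-SKL. Calls moved more. With the CAT-SKL+ADDL arrays as 2 of 8 samples, 1 of the 10 (Sik1) passed after CAT-SKL, beside 8.1% of all genes (1820). After ADDL 4 passed (Inhba, Homer1, Crem, Gadd45b), beside 4.34% (975). After CAT-SKL+ADDL 2 passed (Sik1, Gadd45b), beside 10.3% (2322), and after ADDL+CAT-SKL 2 (Nptx2, Klf4), beside 3.94% (886). With median centring 2 passed after CAT-SKL (Nptx2, Sik1), beside 8.1% of all genes (1819). After ADDL 4 passed (Inhba, Dusp1, Crem, Sik1), beside 1.91% (430). None of the 10 passed after CAT-SKL+ADDL, beside 1.45% (325), and 2 did after ADDL+CAT-SKL (Nptx2, Klf4), beside 1.67% (374). Crem was 1 member that passed for ADDL+CAT-SKL minus ADDL, with 30 of all genes (0.134%). With probes above background on all arrays, 1 member (Klf4) passed after ADDL+CAT-SKL, with 115 of 19402 genes (0.593%). The counts over all genes were 588 after CAT-SKL and 102 after ADDL+CAT-SKL in the fit of 7 samples. They were 0 and 0 with the deposited ratios and 275 and 0 without the filter, and 4 genes passed after CAT-SKL+ADDL with outlier spots kept. The replicate numbers did not pair the samples (r of the deviations of same-numbered arrays between -0.20 and 0.08), and with the replicate block 6 genes passed after CAT-SKL and 0 after ADDL+CAT-SKL, with none of the members and none of the 9 partner and marker calls. With 1 array left out, 0 to 2 members passed after CAT-SKL, 0 to 5 after ADDL, 0 to 0 after either sequence, and 0 to 1 for ADDL+CAT-SKL minus ADDL. All genes past the threshold then numbered 2 to 588 after CAT-SKL, 0 to 329 after ADDL, 0 to 5 after CAT-SKL+ADDL and 0 to 102 after ADDL+CAT-SKL. A lone array of a treatment was then assumed to vary like the others. The cause of these shifts was not tested.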
